A study of Homo sapiens with 5 samples.

Results

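The nuclear-encoded respiratory chain genes were taken as the protein-coding genes outside the mitochondrial chromosome whose symbols start with NDUF, UQCR, ATP5, SDHA to SDHD or COX followed by a digit, together with CYC1 and CYCS. This rule found 113 of the 33857 listed genes. By their known roles they divide into 45 genes of complex I, 8 of complex II, 10 of complex III, 1 cytochrome c gene, 28 of complex IV and 21 of the ATP synthase. The prefixes also bring in 22 genes counted as assembly factors, namely the NDUFAF and SDHAF genes, COX10 to COX20 and COX7A2L. Assembly factors build the complexes but are not part of them, whereas COX7A2L takes part in supercomplexes. The table still uses NDUFA4 for a subunit now placed in complex IV, where it is counted here.

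The respiratory chain sits in the inner mitochondrial membrane. Complex I takes electrons from NADH and complex II from succinate, complex III hands them to cytochrome c, and complex IV passes them to oxygen. The proton gradient built on the way drives the ATP synthase. Most subunits are encoded in the nucleus, and a small set is encoded by mitochondrial DNA. Each complex except complex II is thus assembled from both genomes. Pluripotent stem cells rely strongly on glycolysis but keep an assembled respiratory chain.

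Poly(A+) RNA was sequenced from H9 cells, an established human embryonic stem cell line grown in mTeSR medium. The study reports that transfected cultures were selected on puromycin before single clones were picked. In the labels 2 samples are named control, and the study describes its mock controls as clones that had received the empty CRISPR/Cas9 vector. The 3 CFIm25-m samples came from clones edited with guide RNAs near the start codon of the CFIm25 gene. CFIm25 is a factor of mRNA 3' end processing. The labels call the edited cells a knockout, whereas the study describes clones with small N-terminal deletions and reduced CFIm25 protein, so CFIm25-m is used here. Every CFIm25-m sample is thus 1 clone, and a property of a clone cannot be told apart from replicate spread within the group. The p-values pool the spread between the mock controls with that between these clones, and reach no further than these samples.

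The values are reads scaled by each sample's own size factor, called normalized counts here, and the recovered depth was between 18754108 and 23372391 reads. NUDT21, which encodes CFIm25, was at 6503 and 6398 normalized counts in the controls, against 4035, 3281 and 3400 in CFIm25-m replicates 1 to 3 (log2 fold change -0.86, standard error 0.11, limma-trend adjusted p = 0.00431). The mock controls were close to each other, with a mean chi-square between their read counts of 1.77 per gene, where counting error alone gives about 1, against 8.29 to 31.9 between pairs of clones. All 8 pluripotency markers were tested and 0 passed the threshold, with 6 below 0 and a median log2 fold change of -0.26. POU5F1 (0.21) and TDGF1 (0.14) were higher in every clone than in both controls, and NANOG (-0.31), LIN28A (-0.41), DNMT3B (-0.33) and SALL4 (-0.35) lower. Of 4 neural, 3 mesoderm, 4 endoderm and 4 stromal markers, 2, 1, 1 and 2 passed the filter on low values and 0 the threshold. NEUROD1, SOX17 and FOXA2 had at most 1.80 normalized counts, MEOX1 at most 1.15 and the stromal markers DCN and LUM at most 2.31. The neural marker PAX6, also below the filter, was higher in every clone, with at least 5.77 against 3.46 and 3.86 in mock control. TBXT (at most 8.07) and GATA4 (at most 17.04) were below the filter too, and their groups overlapped. Among the tested markers SOX1 (log2 fold change -0.99) and TUBB3 (-0.64) were lower in every clone, CXCR4 (1.40) was higher in every clone, and MIXL1 (0.34) overlapped, all at 38.6 normalized counts or fewer. COL1A1 lay between 5749 and 8705 and was lower in every clone (-0.42), while COL1A2, between 1107 and 1493, was higher (0.34). The part of these markers in the results below was not tested. In bulk RNA, fewer cells of a kind and less RNA per cell cannot be told apart.

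A group of these genes shares short promoter sequences known as sites of nuclear factors for respiratory genes, and these are shown first because they are a property that the choice by symbol did not use. The RefSeq promoter table (GRCh38.p14) holds windows of 250 bases before to 50 bases after a start site. It had 113 windows for 92 members, since some genes have several start sites. The core GCGCATGCG of nuclear respiratory factor 1 (NRF1), read on both strands, was found in 13.3% of the members' windows and in 1.92% of all 35116 windows, or 2.36% of the windows of protein-coding genes. The core CCGGAAG, bound by ETS factors such as GABP, was found in 28.3% against 10.3%, or 12.8% for protein-coding genes. The core AAGATGGCG of YY1 was found in 11.5% against 1.75%, or 2.41% for protein-coding genes. No matches of different cores overlapped. The members' windows had a median GC content of 61.7%, against 58.7% over all windows and 62.3% over protein-coding genes. At least 1 of these cores was found for 44 members, or 47.8%.

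The NRF1 core was held by 14 members, among them the following genes of complexes I, II and IV and the ATP synthase. Each line gives the core in capitals with its flanking bases, read 5′ to 3′ on the strand of the gene.
NDUFS7: ttccggtttcCGCATGCGCtccgagccgc
SDHD: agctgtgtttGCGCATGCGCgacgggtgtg
COX6A1: ggagggcacaCGCATGCGCacgaaggaaa
ATP5F1C: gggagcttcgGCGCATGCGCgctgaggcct

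The printed stretches, flanks included, lie on the plus strand at chr19:1383823-1383851, chr11:112086753-112086782, chr12:120437884-120437912 and chr10:7788145-7788174. Their cores begin 74, 110, 219 and 22 bases before the start site, in this order. In SDHD and ATP5F1C the core runs on into its own reverse complement, so it matches on both strands.

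The ETS core was held by 29 members and the YY1 core by 11. The first 3 lines show the ETS core in capitals and the last 3 the YY1 core.
SDHB: acccgggaaaCCGGAAGccgcctccca
UQCRH: gtgtgccgcaCTTCCGGccagatcgcc
COX8A: agctccagaaCTTCCGGccagcgcagc
NDUFS7: ggccgaggccAAGATGGCGgtgctgtcag
SDHB: gtcaggagccAAGATGGCGgcggtggtcg
UQCRC1: ctgcagctggAAGATGGCGgcgtccgtgg

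With their flanks, the printed ETS stretches lie at chr1:17054144-17054170 (minus strand), chr1:46303642-46303668 (plus) and chr11:63974592-63974618 (plus). Their cores are all before the start site. The printed YY1 stretches lie at chr19:1383914-1383942 (plus), chr1:17054004-17054032 (minus) and chr3:48609605-48609633 (minus), with their cores all after the start site. Of the 10 members with the highest or lowest log2 fold change described below, NDUFB6, NDUFAB1, SDHAF1, NDUFB11 and COX6B2 had none of the 3 cores in their windows. NDUFS7, COX10, NDUFA9, NDUFAF8 and ATP5MG had at least 1. The 14 members with the NRF1 core had a median log2 fold change of -0.13 between CFIm25-m and mock control, against -0.10 for the 74 tested members whose windows lacked it. For the ETS core the medians were -0.13 and -0.11, and for the YY1 core -0.16 and -0.11. These are descriptions of letters in a window, and a difference between members with and without a core was not tested.

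Respiratory chain genes were expressed at high and uneven levels in H9 cells. Of the 113 members, 106 passed the filter, which asked for 10 or more normalized counts in 2 or more samples, and 100 of these had a mean of at least 100. Compared per kilobase of the deposited gene length, the median level of the tested members was 389, against 66.7 for all 19232 tested genes and 95.9 for the protein-coding ones. The members were also short, with a median length of 2484 bases against 5046 for tested protein-coding genes.

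**Figure D1:**
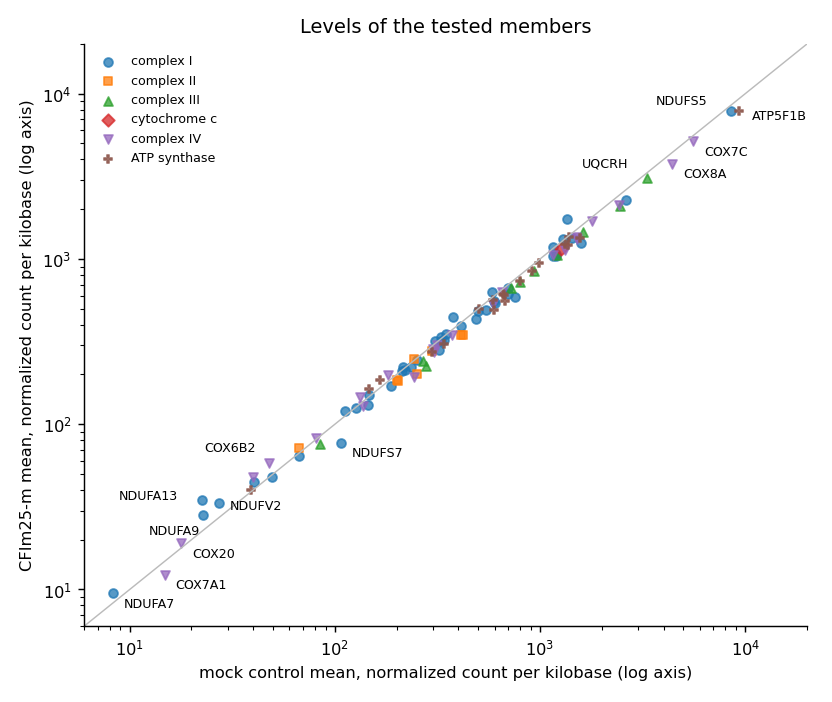
Mean normalized count per kilobase of the 106 tested members in mock control (horizontal, n = 2) and CFIm25-m (vertical, n = 3), both on log axes, with the complex given by the marker and the grey line marking equal levels. The members lie along the line, with ATP5F1B at 9376 per kilobase in mock control and 7842 in CFIm25-m and NDUFS5 at 8558 and 7913.

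The 10 highest members per kilobase came from all complexes with mitochondrially encoded partners. ATP5F1B, the catalytic beta subunit of the ATP synthase, led with 8455 normalized counts per kilobase over all samples, followed by the small complex I subunit NDUFS5 with 8171. Next were the complex IV subunits COX7C with 5313 and COX8A with 4025, then UQCRH of complex III with 3177. NDUFB7, COX6B1, CYC1, COX5A and NDUFB11 followed between 1593 and 2405. No complex II gene was among them, and the 4 SDH subunits lay between 191 (SDHC) and 379 (SDHB) per kilobase.

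Several members that the complexes need were listed at low levels. NDUFV2, an iron-sulphur subunit of complex I, had 30.9 normalized counts per kilobase, while the core subunits NDUFS7 and NDUFV1 had 89.2 and 565. Its normalized counts were 73.8 and 74.3 in mock control and 73.2, 83.7 and 114 in CFIm25-m. NDUFA7, an accessory subunit, was the lowest tested member, with 8.07 to 16.4 normalized counts in the 5 samples. The accessory subunits NDUFA9 with 26.1 and NDUFA13 with 29.9 per kilobase were also low. NDUFA7, NDUFA9 and NDUFA13 each overlap another listed protein-coding gene on the same strand, and NDUFV2 overlaps antisense genes, so these counts can miss reads that fit more than 1 gene. Such a same-strand overlap was found for 19 members, of which the 16 tested had a median of 232 per kilobase, against 590 for the 48 tested members that overlap no listed gene. The medians of their log2 fold changes were 0.04 and -0.14. A further source of uncertainty is the 73 listed pseudogenes named after members, whose summed normalized count was between 0.42% and 0.65% of the members' sum, mostly from SDHAP1 and SDHAP3, copies of SDHA.

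Among paralogous subunits, the ubiquitous form had the higher read count in each of the 8 pairs. COX4I2, the oxygen-sensitive form of subunit 4, had 0 to 4.81 normalized counts in the 5 samples, and 12 reads in all against 26495 for COX4I1. COX7B2 had 3 reads in all, COX8C 14, COX6A2 28 and NDUFA4L2 33, against 5448 for COX7B, 10287 for COX8A, 4333 for COX6A1 and 24944 for NDUFA4. COX6A2 and COX7A1 are the forms known from heart and skeletal muscle, and COX7B2, COX8C and COX6B2 are known from testis. These 5 genes, COX4I2, COX7B2, COX8C, COX6A2 and NDUFA4L2, were below the filter, as were ATP5MGL and the readthrough gene ATP5MF-PTCD1, and received no test.

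COX6B2 was the best expressed of the tissue-restricted forms. Its normalized counts were 181 and 185 in mock control and 218, 203 and 243 in CFIm25-m, which do not overlap between groups (log2 fold change 0.27, 95% interval -0.06 to 0.61, limma-trend adjusted p = 0.429). The ubiquitous COX6B1 was at 2318 and 2235 in mock control and at 1994, 2182 and 1774 in CFIm25-m (log2 fold change -0.20, limma-trend adjusted p = 0.402). Per kilobase, COX6B2 made up 1.88% and 1.99% of this pair in mock control and 2.62%, 2.24% and 3.26% in CFIm25-m. The share was higher in each clone than in both controls, at a low level throughout. COX7A1 had 5.01 to 20.2 normalized counts, and its groups overlapped. UQCRHL, an intronless copy of UQCRH, was between 2.07% and 2.64% of its pair per kilobase and could share reads with it.

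The c ring of the ATP synthase is built from 1 mature protein encoded by 3 genes. ATP5MC2 gave 41.2% and 42.3% of their summed level per kilobase in mock control and 43.8% to 45.4% in CFIm25-m. ATP5MC1 gave 27.5% and 27.1% in mock control and 25.9%, 24.9% and 26.9% in CFIm25-m. ATP5MC3 gave 31.3% and 30.6% in mock control and 30.4%, 30.0% and 27.7% in CFIm25-m.

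No respiratory chain gene passed the threshold between the groups. Of the 106 tested members, 0 had an adjusted p below 0.05 in limma-trend, where 1.88% of all tested genes did, and 0 passed in edgeR's quasi-likelihood test and in the DESeq2 Wald test on recovered reads. At an unadjusted p below 0.05, 10 members were lower and 2 higher in CFIm25-m by limma-trend. Of all tested genes 7.15% were lower and 7.99% higher, and of the protein-coding ones 8.36% and 7.49%. For the members the counts at this level were 10 and 2 by edgeR and 9 and 2 by DESeq2. For the 100 members with a mean of at least 100, the 95% intervals of the log2 fold change lay between -0.74 and 0.68, and the median standard error was 0.11.

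Most of the single differences had the same sign, at a small size. The fitted log2 fold change was below 0 for 79 members and above 0 for 27, with a median of -0.11. Of all tested genes 51.8% were below 0, with a median of -0.01, and of the protein-coding ones 56.1%, with a median of -0.03. For 40 members every CFIm25-m sample was lower than both mock controls, or 37.7%, and for 8 members, or 7.55%, every one was higher. The same held for 19.8% and 17.0% of all tested genes, and for 23.0% and 15.6% of the protein-coding ones. With reads scaled to the total in place of the deposited size factors, 65 members were below 0 and 41 above, with a median of -0.04 beside 0.06 for all tested genes. The distance between both medians was -0.10 with either scaling. Without CFIm25-m replicate 3 the members' median was -0.05, and 72 members were below 0.

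**Figure D2:**
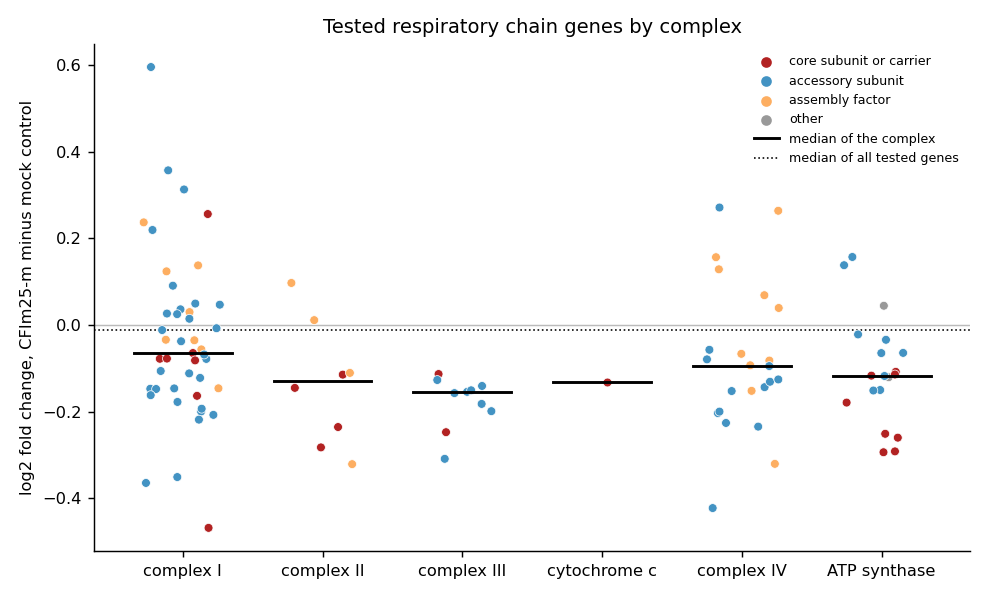
Fitted log2 fold change (CFIm25-m minus mock control) of each of the 106 tested members by complex, coloured by role, with the median of each complex as a black bar and that of all tested genes (-0.01) as a dotted line. All 10 complex III genes lie below 0, and the core subunits lie below 0 except NDUFV2.

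By role, core and accessory subunits had medians below that of all genes, and assembly factors a median close to it. The 21 genes counted as core subunits were 7 of complex I, the 4 SDH subunits, CYC1, UQCRFS1, ATP5F1A to ATP5F1E and ATP5MC1 to ATP5MC3. UQCRC1 and UQCRC2 were counted as accessory subunits. Of the 21 core subunits, 20 were below 0, with a median log2 fold change of -0.15. Of the 60 tested accessory subunits, 46 were below 0, with a median of -0.12. The 22 assembly factors were evenly placed, with 11 below and 11 above 0 and a median of -0.01. The clones did not overlap the controls, on the lower side, in 13 core subunits (61.9%), 21 of 60 tested accessory subunits and 5 assembly factors (22.7%). All tested genes gave 19.8% and the protein-coding ones 23.0%. On the higher side there were 0 core subunits, 4 accessory subunits and 4 assembly factors. Here all tested genes gave 17.0% and the protein-coding ones 15.6%. The difference between subunits and assembly factors was not tested.

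**Figure D3:**
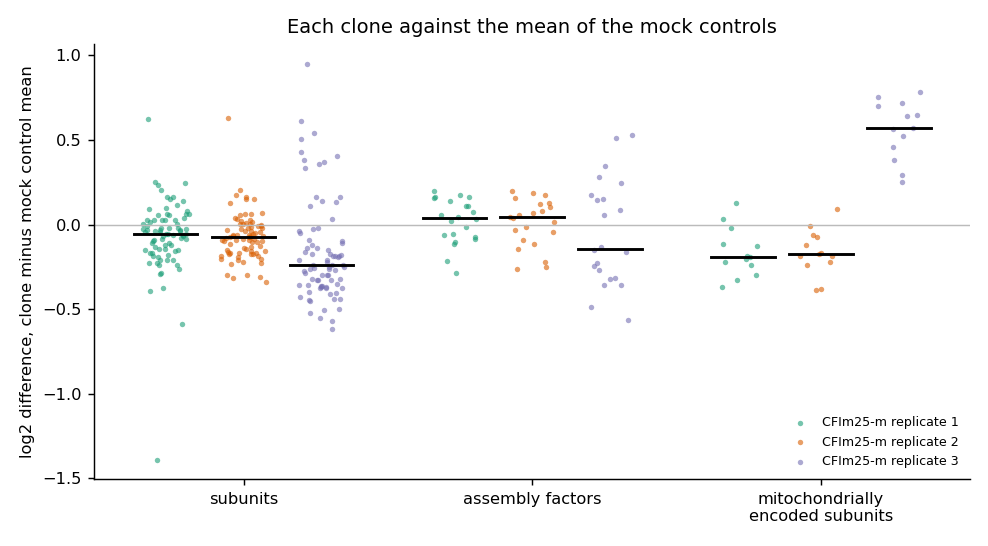
Log2 difference between each CFIm25-m clone and the averaged mock controls for 81 tested subunits, 22 assembly factors and 13 mitochondrially encoded subunits, 1 point per gene, with medians as black bars. The median of the subunits lies below 0 in every clone and lowest in replicate 3 (-0.24), where the mitochondrially encoded subunits lie above 0.

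In complex I, the peripheral arm subunit NDUFS7 was the member with the lowest adjusted p. NDUFS7 (ENSG00000115286, chromosome 19, 1383527 to 1395589) carries the iron-sulphur centre next to ubiquinone. Its normalized counts were 769 and 841 in mock control and 535, 654 and 560 in CFIm25-m. All clones were below both controls, and the means were 805 ± 50.8 (SD, n = 2) for mock control and 583 ± 62.5 (SD, n = 3) for CFIm25-m. The log2 fold change was -0.47, with a standard error of 0.12 and a 95% interval of -0.74 to -0.20, and limma-trend gave an adjusted p of 0.0934, so it missed the threshold. Without CFIm25-m replicate 3, where 5.56% of all tested genes passed, its adjusted p was 0.0471 in limma-trend. NDUFS7 overlaps antisense genes, and strand use in counting is not given in the sources used here.

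Further core subunits of complex I differed less between the groups. NDUFV1, which binds NADH, had a log2 fold change of -0.16, and NDUFS1, NDUFS3 and NDUFS8 were each at -0.08. Without CFIm25-m replicate 3 the sign of NDUFS3 turned, to 0.03. NDUFV2 was at 0.26 on the same scale, with a standard error of 0.24 that reflects its low counts. None of these passed in limma-trend.

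Accessory subunits of complex I spread widely to both sides. NDUFB6 had normalized counts of 1070 and 1024 in mock control and 893, 851 and 706 in CFIm25-m (log2 fold change -0.36, limma-trend adjusted p = 0.186). NDUFAB1, the mitochondrial acyl carrier protein, had 2486 and 2574 in mock control and 2228, 2030 and 1724 in CFIm25-m (log2 fold change -0.35, limma-trend adjusted p = 0.186). In both genes all clones were below both controls and replicate 3 was lowest.

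NDUFB11, a membrane arm subunit encoded on the X chromosome, had the highest log2 fold change among members with a mean of at least 100. Its normalized counts were 1822 and 2016 in mock control and 2951, 2004 and 2502 in CFIm25-m (log2 fold change 0.36, standard error 0.15, limma-trend adjusted p = 0.288). Replicate 2 lay within the range of the controls, so the difference rests on replicates 1 and 3. NDUFB11 overlaps RBM10 on the opposite strand. NDUFA13, which is below that mean, had 58.8 and 62.7 in mock control and 70.2, 94.5 and 118 in CFIm25-m (log2 fold change 0.60, limma-trend adjusted p = 0.305), and all clones were above both controls. NDUFA9 had 255 and 217 in mock control and 277, 264 and 342 in CFIm25-m (log2 fold change 0.31, limma-trend adjusted p = 0.393). The assembly factor NDUFAF8 had 463 and 567 in mock control and 534, 557 and 742 in CFIm25-m (log2 fold change 0.24, limma-trend adjusted p = 0.516), and its groups overlapped.

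**Figure D4:**
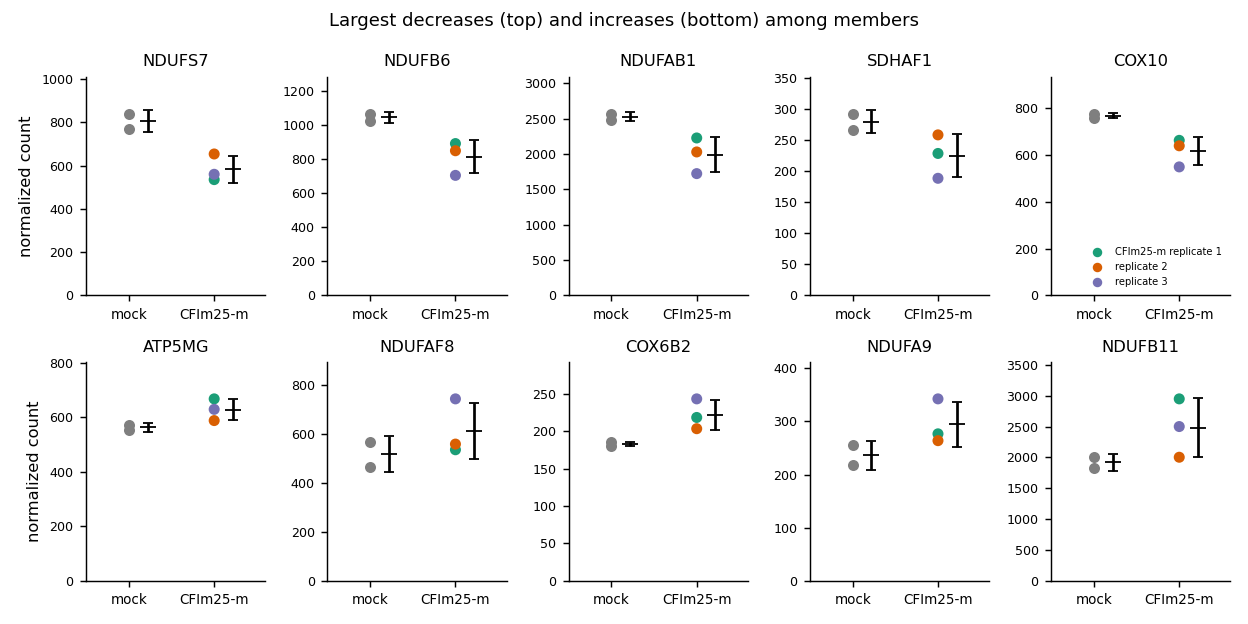
Normalized counts in every sample of the 5 members with the lowest (top) and the 5 with the highest log2 fold change (bottom) among those with a mean of at least 100, with group means and SD (n = 2 mock control, n = 3 CFIm25-m) as bars beside the points. The clones lie below both controls in all 5 upper panels, and overlap the controls in NDUFAF8 and NDUFB11 below.

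Complex II, the only complex with no mitochondrially encoded subunit, had all 4 subunits lower in every clone than in both controls. The same was so for 19.8% of all tested genes and 23.0% of the protein-coding ones. SDHA, which holds the flavin, had normalized counts of 2480 and 2526 in mock control and 2244, 2392 and 2301 in CFIm25-m. Its copy SDHAP1 had 290 and 325 in mock control and 357, 330 and 400 in CFIm25-m. The copy SDHAP3 had 217 and 242 in mock control and 292, 223 and 344 in CFIm25-m. Whether SDHA shared reads with these copies was not tested. SDHB, the iron-sulphur subunit, had 1037 and 1046 in mock control and 891, 925 and 762 in CFIm25-m (log2 fold change -0.28, limma-trend adjusted p = 0.269). The membrane anchors SDHC and SDHD had log2 fold changes of -0.14 and -0.24. None of the 4 passed, and they were below 0 under every scaling tried. The assembly factor SDHAF1, which helps to place iron-sulphur clusters in SDHB, had 293 and 266 in mock control and 229, 258 and 189 in CFIm25-m (log2 fold change -0.32, limma-trend adjusted p = 0.396). The other assembly factors of complex II, SDHAF2, SDHAF3 and SDHAF4, lay between -0.11 and 0.10.

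In complex III all 10 genes had a fitted log2 fold change below 0, from -0.31 (UQCR11) to -0.11 (UQCRFS1), with a median of -0.16. CYC1, the cytochrome c1 subunit, had normalized counts of 4781 and 4952 in mock control and 4215, 4558 and 3582 in CFIm25-m (log2 fold change -0.25, limma-trend adjusted p = 0.333). The core proteins UQCRC1 and UQCRC2 were at -0.16 and -0.15 and the Rieske protein UQCRFS1 at -0.11. For 6 of the 10 genes all clones were below both controls. This held for 19.8% of all tested genes and 23.0% of the protein-coding ones. The medians of complex III were -0.06, -0.07 and -0.32 in CFIm25-m replicates 1 to 3, so replicate 3 was farthest from the controls, and without it UQCRHL was at 0.04. CYCS, the mobile carrier cytochrome c, had 5636 and 5617 in mock control and 5563, 5100 and 4776 in CFIm25-m (log2 fold change -0.13, limma-trend adjusted p = 0.553).

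In complex IV, 12 of the 13 tested subunits were below 0, with COX6B2 as the exception, while its 10 assembly factors were split into 5 below and 5 above. COX4I1 had normalized counts of 5622 and 5519 in mock control and 5428, 5113 and 4620 in CFIm25-m, with a log2 fold change of -0.14. COX8A had 2280 and 2197 in mock control and 1725, 2119 and 1882 in CFIm25-m (log2 fold change -0.24, limma-trend adjusted p = 0.331). COX5A and COX5B were at -0.08 and -0.15, COX7A2 at -0.23, COX7B at -0.10 and NDUFA4 at -0.20. COX5A was at 0.0001 without replicate 3. COX7A2L, counted here with the assembly factors although it takes part in supercomplexes, was at -0.07. Its sign turned without replicate 3 and with scaling to total reads. COX6A1 was at -0.06, and its sign turned with scaling to total reads and without replicate 2. COX10, which makes haem O for the oxidase, had 758 and 776 in mock control and 661, 638 and 548 in CFIm25-m (log2 fold change -0.32, limma-trend adjusted p = 0.229).

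In the ATP synthase, all 8 core subunits were below 0, with a median log2 fold change of -0.22, and the 9 tested accessory subunits had a median of -0.06. ATP5F1B had normalized counts of 21693 and 21847 in mock control and 18436, 19410 and 16782 in CFIm25-m. The mean was lower by 16.4% of the control mean (log2 fold change -0.26, 95% interval -0.50 to -0.02, limma-trend adjusted p = 0.295). All clones were below both controls. Without CFIm25-m replicate 3 its adjusted p was 0.0402 in limma-trend, with a log2 fold change of -0.20. The alpha subunit ATP5F1A had 17000 and 17331 in mock control and 15284, 16119 and 12172 in CFIm25-m, with a log2 fold change of -0.25. The gamma subunit ATP5F1C and the inhibitor ATP5IF1 were at -0.18 and -0.12, with overlapping groups. ATP5MG was the accessory subunit with the highest log2 fold change, with 552 and 573 in mock control and 667, 588 and 629 in CFIm25-m (log2 fold change 0.16, limma-trend adjusted p = 0.528). ATP5MG overlaps another protein-coding gene on the same strand.

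CFIm25-m replicate 3 stood apart from the other clones for these genes. The median log2 difference of the members from the averaged mock controls was -0.03 in replicate 1, -0.06 in replicate 2 and -0.23 in replicate 3, while the mock controls differed from each other by a median of 0.02. Replicate 3 was the lowest of all 5 samples for 65 of the 106 tested members, or 61.3%. It was so for 32.5% of all tested genes and 37.9% of the protein-coding ones. For the core subunits the medians were -0.15, -0.09 and -0.30 in replicates 1 to 3, and for the assembly factors 0.04, 0.04 and -0.14. As a share of all reads the members made up 0.977% and 0.975% in mock control and 0.962%, 0.950% and 0.872% in CFIm25-m.

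The 13 mitochondrially encoded subunits, measured in the same libraries, went the other way in replicate 3. They made up 3.92% and 3.90% of reads in mock control, 3.55% and 3.54% in CFIm25-m replicates 1 and 2, and 6.07% in replicate 3. All 13 were above the control mean in replicate 3, with a median log2 difference of 0.57, and 11 and 12 of them were below it in replicates 1 and 2. None passed between the groups in limma-trend, and the lowest adjusted p was 0.552. The ratio of their summed normalized count to that of the nuclear members was at most 4.01 in mock control, 3.69 and 3.72 in replicates 1 and 2, and 6.96 in replicate 3. Whether this has a part in the lower nuclear values of replicate 3 was not tested.

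**Figure D5:**
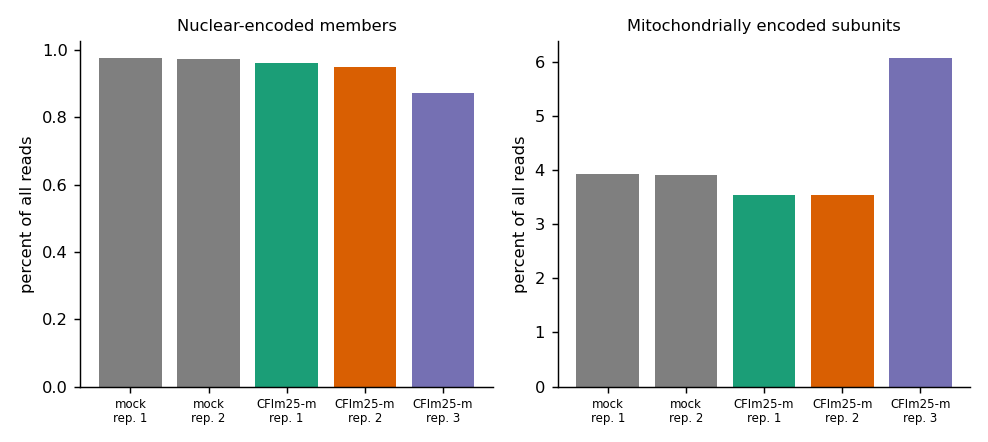
Percent of all recovered reads in the 113 nuclear-encoded members (left) and in the 13 mitochondrially encoded subunits (right) for each sample, as bars from 0 with 1 library per bar. CFIm25-m replicate 3 has the lowest share of nuclear members (0.872%) and the highest of mitochondrially encoded subunits (6.07%).

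Other genes of the pathway were read from a list of 68 assembly factors, expression regulators and ubiquinone synthesis genes that are no members by symbol. Of these, 67 were tested, with a median log2 fold change of -0.04. In limma-trend 1 of the 67 passed, in the lower direction, where 1.88% of all tested genes passed in either direction. The gene that passed was CHCHD2, a protein of the mitochondrial intermembrane space that is also known to act on the COX4I2 promoter. CHCHD2 had normalized counts of 280 and 280 in mock control and 1.00, 2.70 and 3.85 in CFIm25-m (adjusted p = 0.000168, limma-trend), while COX4I2, as given above, was near 0 in both groups. Its relative CHCHD10 had 390 and 433 in mock control and 295, 455 and 423 in CFIm25-m and did not pass.

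The 16 regulators had a median log2 fold change of -0.16, with 11 (68.8%) below 0. Of all tested genes 51.8% were below 0, and of the protein-coding ones 56.1%. In 8 regulators all clones were below both controls, where 19.8% of all tested genes and 23.0% of the protein-coding ones were. NRF1 itself was at -0.07, GABPA at 0.05 and YY1 at -0.17, and TFAM, which packages mitochondrial DNA, at -0.17. The largest difference among the regulators, named here after the values were seen, was in the coactivator PPARGC1B, with 785 and 780 in mock control and 530, 526 and 641 in CFIm25-m (log2 fold change -0.47, limma-trend adjusted p = 0.0898). The 41 assembly factors of the list, of which 40 were tested, had a median of -0.02, close to that of the members' own assembly factors. The 11 ubiquinone synthesis genes had a median of -0.04, and none passed.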

How the data were processed

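Poly(A+) mRNA-seq of H9 cells was analysed for 2 mock control and 3 CFIm25-m samples, grouped by their labels. The authors deposited a table of normalized counts per gene, a signal made by dividing reads by a size factor per sample. The submitters' processing notes name HISAT2, featureCounts from Subread, DESeq2 and hg38. Their own group means, fold changes and p-values were not used. Whole reads were recovered as multiples of the smallest value of each sample (100% of values were whole, within 0.05 reads).

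Tests used limma 3.58.1 (lmFit and eBayes with trend, R 4.3.3) on log2(value + 1) for genes of at least 10 in at least 2 samples, with Benjamini-Hochberg adjustment over all 19232 genes and a threshold of 0.05. Fold changes on this scale understate those of low genes. The recovered reads were also tested with edgeR 4.0.16 (quasi-likelihood) and DESeq2 1.42.0 (Wald). Further alternatives were voom, other scalings, pseudocounts and filters, a replicate block and leaving out samples. On simulated counts for this comparison (18885 genes), limma-trend recovered 94% of 2-fold and 100% of 4-fold changes, and 10.2% of its calls were false. Only well-expressed genes were changed, and both groups were given the same dispersion. Smaller differences, like those of the members, were not covered.

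The members and gene lists were chosen with earlier results of these data known. Genes named were the 5 largest increases and decreases among members with a mean of at least 100, the paralogues, the catalytic and electron-carrying subunits, the 10 highest per kilobase, NUDT21 and CHCHD2. One member that this rule names is not reported here. Others were named after their values were seen. Members were matched to RefSeq promoters by symbol or synonym on the same strand, within 5000 bases of the deposited gene.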

Additional observations from a re-analysis of the deposited data

How the results depend on the processing

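Of the members, 0 passed the threshold in either direction under all alternatives except the replicate block and leaving out CFIm25-m replicate 3, and their median log2 fold change stayed below 0 in all of them, from -0.14 to -0.04. Leaving out 1 sample at a time gave 0 to 2 members lower and 0 higher, 34 to 533 lower and 25 to 536 higher among all genes, 1 to 2 list genes called, and -0.95 to -0.80 for NUDT21. The counts of 2 members lower (NDUFS7 and ATP5F1B) and 533 and 536 among all genes came without CFIm25-m replicate 3, where 5.56% of all tested genes passed. Without mock control replicate 1 or 2, where the lone control is assumed to vary like the clones, 63 and 60 genes in all were called, and NUDT21 lost its call (adjusted p = 0.0854 and 0.0722, limma-trend). It also lost it without the mean-variance trend, at -0.86 with adjusted p = 0.106, where 25 genes were lower and 21 higher. Among all genes DESeq2 called 280 lower and 349 higher, and voom 116 higher. The cause was not tested.

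Samples with the same replicate number had correlations of only 0.01 and 0.02 between their deviations. The mock controls differed little beyond counting error, so this check cannot tell whether the numbers pair samples. With the replicate block, which leaves replicate 3 without a partner, 6 members were lower (ATP5F1B, ATP5MC1, COX8A, NDUFAB1, NDUFB6 and NDUFS7) and 1 higher (NDUFB11), as were 1064 and 1043 of all genes, with 4 list genes called. The block and leaving out replicate 3 turned the sign of COX5A (0.0001), COX7A2L (0.0775), NDUFS3 (0.0329) and UQCRHL (0.0363). Scaling to total reads, with and without mitochondrial genes, turned that of COX6A1 (0.0114 and 0.0201) and COX7A2L (0.0022 and 0.0109). Leaving out 1 sample gave -0.1337 to 0.0001 for COX5A, -0.1678 to 0.0097 for COX6A1, -0.8489 to 0.0602 for COX7A1, -0.1543 to 0.0775 for COX7A2L, -0.1467 to 0.0329 for NDUFS3 and -0.3139 to 0.0363 for UQCRHL. Depth limited NDUFA7, COX7A1 and the members below the filter most.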
